A study of Mus musculus with 3 samples.

Results

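The 10 genes described here encode enzymes of sugar breakdown and a transporter of its product, and were matched by their symbols: the lactate dehydrogenase genes Ldha, Ldhb and Ldhc, the phosphoglycerate kinase genes Pgk1 and Pgk2, the glyceraldehyde-3-phosphate dehydrogenase genes Gapdh and Gapdhs, the pyruvate dehydrogenase E1 alpha subunit genes Pdha1 and Pdha2, and the lactate and pyruvate transporter gene Slc16a1. All 10 were found among the 55450 gene rows, and each had UMIs in every library. They were measured in single cells of mouse testis by droplet sequencing of transcript 3' ends, in which a unique molecular identifier (UMI) marks each captured RNA molecule. Busulfan, a DNA alkylator toxic to proliferating spermatogonia, had been given to all animals to model azoospermia. The dEXO group was injected with exosomes, vesicles that cells release, taken from the blood of mice whose gut microbiota was out of balance, the EXO group with blood exosomes from wild-type mice, and the PBS group with phosphate-buffered saline. Each group has 1 library; the sources used here do not give strain, age, dose, time after injection or how many animals went into each library. The labels' extraction protocol speaks of aorta, while the tissue is labelled testis, and the cells carried testis markers as described below. Because there is 1 library per group, no difference below has a replicate check and no p-value was computed. Intervals are 95% intervals and cover counting error only.

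Somatic cells break glucose down with Gapdh, Pgk1 and the tetramers made from Ldha and Ldhb, and feed pyruvate into mitochondria through a complex that holds Pdha1. Male germ cells switch several of these steps to isoforms of their own as they pass through meiosis and become spermatids: Ldhc, Pgk2, Gapdhs and Pdha2. Pgk2 and Pdha2 are autosomal retrogenes of Pgk1 and Pdha1, which lie on the X chromosome, and the X chromosome is silenced during male meiosis. Sertoli cells, the nurse cells of the seminiferous tubule, are known to break glucose down to lactate, which meiotic and postmeiotic germ cells burn, and the transporter encoded by Slc16a1 (MCT1) carries lactate across membranes.

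In the GRCm38 annotation Ldha lies on chromosome 7 at 46841475 to 46855627 and Ldhc at 46861203 to 46878142, both protein-coding genes on the plus strand with 5575 bases between them. Gapdhs is also on chromosome 7 (30729775 to 30743681, minus strand), Gapdh on chromosome 6 (125161715 to 125166467, minus strand) and Ldhb on chromosome 6 (142490249 to 142507957, minus strand). Pgk1 (106187100 to 106203699, plus strand) and Pdha1 (160122209 to 160138413, minus strand) are on chromosome X. Pgk2 is on chromosome 17 (40207015 to 40208640, minus strand), Pdha2 on chromosome 3 (141210004 to 141212355, minus strand) and Slc16a1 on chromosome 3 (104638668 to 104658462, plus strand).

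The promoters of the 4 germ-cell isoforms and of Ldha are printed because these 5 genes stood high together in the late germ cells described below. Each is the 250 bases before a RefSeq start in GRCm38.p6, 5' to 3' on the gene's strand. Ldhc, Ldha and Gapdhs had 2 windows listed, of which the first was taken. The windows are chr7:46861013-46861262 (plus) for Ldhc, chr7:46845554-46845803 (plus) for Ldha, chr17:40208610-40208859 (minus) for Pgk2, chr7:30743682-30743931 (minus) for Gapdhs and chr3:141212356-141212605 (minus) for Pdha2. That of Ldha lies inside the Ldha span given above, and those of Ldhc and Pgk2 run past the start of their own gene's span. Capitals mark the CRE half-site TGACG, the core letters bound by CREB and CREM family factors, and the motif AACNGTT bound by MYB family factors, searched on both strands.
Ldhc: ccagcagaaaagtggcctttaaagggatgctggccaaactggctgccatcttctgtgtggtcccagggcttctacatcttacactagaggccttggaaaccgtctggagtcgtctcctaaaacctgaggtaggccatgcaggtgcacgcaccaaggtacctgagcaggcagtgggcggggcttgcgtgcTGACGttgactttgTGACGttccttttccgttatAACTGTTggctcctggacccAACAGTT
Ldha: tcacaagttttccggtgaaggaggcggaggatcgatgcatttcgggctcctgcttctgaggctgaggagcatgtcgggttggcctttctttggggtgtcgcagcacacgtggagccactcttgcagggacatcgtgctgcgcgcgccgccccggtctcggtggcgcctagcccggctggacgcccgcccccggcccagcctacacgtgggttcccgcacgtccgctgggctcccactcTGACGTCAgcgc
Pgk2: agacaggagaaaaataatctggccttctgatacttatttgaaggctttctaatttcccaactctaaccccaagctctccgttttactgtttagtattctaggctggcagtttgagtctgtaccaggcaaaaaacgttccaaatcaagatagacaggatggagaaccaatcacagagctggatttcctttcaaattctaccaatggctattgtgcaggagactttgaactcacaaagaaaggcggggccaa
Gapdhs: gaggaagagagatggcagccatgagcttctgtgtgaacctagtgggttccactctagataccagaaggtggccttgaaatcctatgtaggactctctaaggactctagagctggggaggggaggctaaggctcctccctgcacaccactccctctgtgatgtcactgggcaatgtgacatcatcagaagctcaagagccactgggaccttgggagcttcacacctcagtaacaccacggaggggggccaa
Pdha2: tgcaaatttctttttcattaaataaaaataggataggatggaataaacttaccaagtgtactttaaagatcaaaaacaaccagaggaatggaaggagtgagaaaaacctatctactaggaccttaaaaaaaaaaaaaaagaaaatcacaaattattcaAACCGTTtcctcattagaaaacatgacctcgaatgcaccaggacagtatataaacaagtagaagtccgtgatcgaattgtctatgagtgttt
Ldhc held TGACG at 61 and 47 bases before the start and AACNGTT at 27 and 7 bases before it. Ldha held TGACG on both strands in overlapping copies, Pdha2 held 1 AACNGTT at 92 bases before the start, and Pgk2 and Gapdhs held neither set of letters in this window. Among 32851 promoters of this length, 17.8% held TGACG, 3.80% held AACNGTT and 0.551% held both, as Ldhc did. A match is a description of the letters and not a measured binding site, and it holds for the printed window only.

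Totals were 96655663 UMIs over 9760 barcodes in dEXO, 91787154 over 10228 in EXO and 97253862 over 5514 in PBS. The median used cell had 3052 UMIs in dEXO, 3256 in EXO and 8398 in PBS, and any pair of libraries shared 15 to 17 barcode sequences. Clusters were named by marker genes that include none of the 10, and every class name below means cells like that type by its markers. Of the cells, 23.9% in dEXO, 12.2% in EXO and 5.18% in PBS lay in germ clusters, and of the UMIs, 49.3% in dEXO, 29.1% in EXO and 10.3% in PBS. The germ clusters held 2146 cells in dEXO, 1207 in EXO and 273 in PBS, of which 1398 in dEXO, 724 in EXO and 193 in PBS lay in clusters that the markers named. Early germ cells (spermatogonia and early spermatocytes) numbered 437 in dEXO, 220 in EXO and 105 in PBS, late spermatocytes 281 in dEXO, 111 in EXO and 12 in PBS, and spermatids 680 in dEXO, 393 in EXO and 76 in PBS. With 12 cells, PBS late spermatocytes are described but enter no ratio. The median spermatid had 3421 UMIs in dEXO, 4750.0 in EXO and 16736 in PBS, and 2 of the 5 spermatid clusters were shallow, with medians of 2112 and 1205 UMIs, and raised 4 Leydig markers beside those of spermatids. The Sertoli cluster held 10 of 10 Sertoli markers in all 3 libraries, and 6 early spermatocyte markers were raised there too. Late germ cells below means late spermatocytes and spermatids together. Levels are UMIs per 1000000 UMIs of a library and class (CPM); since each UMI is a transcript's 3' end, CPM can be set side by side for different genes without a length correction.

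Of the UMIs of Ldha, Ldhb and Ldhc, most were of Ldhc in all 3 germ classes. In dEXO most were also of Ldhc in macrophages (80.4%), stromal cells (63.2%) and T or NK cells (63.1%). They were not in Sertoli (27.7%) or Leydig cells (19.0%), and the dEXO early germ share was 83.9%. Ldhc UMIs were far more numerous from late spermatocytes on, and Ldha was high in the same cells. In early germ cells Ldhc stood at 242 CPM in dEXO, 80.6 in EXO and 27.3 in PBS. In late spermatocytes it stood at 9057 CPM in dEXO, 8955 in EXO and 9329 in PBS, and in spermatids at 7945 CPM in dEXO, 7739 in EXO and 7674 in PBS. Every late germ level lay above every early germ level, and the 3 libraries were close to each other in both late classes. Ldha, which encodes the muscle-type subunit, stood at 33.0 CPM in dEXO, 13.4 in EXO and 4.49 in PBS in early germ cells, and at 933 CPM in dEXO, 1034 in EXO and 1320.4 in PBS in late spermatocytes. In spermatids it was lower than in late spermatocytes in each library, with 707 CPM in dEXO, 716 in EXO and 673 in PBS. Although Ldha counts as a somatic isoform, its levels in late spermatocytes and spermatids were above those of every somatic class in each library. Ldhb, which encodes the heart-type subunit, lay between 2.79 and 13.3 CPM in the 3 germ classes of all 3 libraries. In PBS late spermatocytes 1 of the 12 cells held 61.4% of the Ldhc UMIs, so those levels rest on very few cells.

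Ordered from early to late by stage markers, 12 named germ clusters gave the same change in finer steps. Over the 3 libraries together Ldhc was at 168, 122, 105, 160.0 and 191 CPM in the 5 early clusters. An unnamed cluster that the stage markers placed just before the late spermatocytes had 2653 CPM. It raised 5 Leydig markers, more than the 3 of early and 2 of late spermatocytes. Ldhc then held at 8966 and 9105 CPM in the 2 late spermatocyte clusters, and these were the highest values of the 12. Among the 3 deeper spermatid clusters it was lower at each later stage, with 8240.1, 7897 and 7249.9 CPM, and in the 2 shallow ones it was at 5373 and 2788 CPM. Ldha took the same course, from 1009.8 CPM in the first late spermatocyte cluster to 808, 708 and 532 CPM in the deeper spermatid clusters. The number of Ldha UMIs per 100 Ldhc UMIs in late spermatocytes was 10.3 in dEXO, 11.5 in EXO and 14.2 in PBS. In spermatids it was 8.90 in dEXO, 9.25 in EXO and 8.78 in PBS, and in early germ cells 13.6 in dEXO, 16.6 in EXO and 16.5 in PBS.

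Phosphoglycerate kinase, the first ATP-making step of glycolysis, was mostly Pgk1 in early germ cells and mostly Pgk2 in late ones. In early germ cells Pgk2 stood at 8.76 CPM in dEXO, 5.10 in EXO and 0.321 in PBS, the PBS value being 1 UMI. In late spermatocytes it stood at 227 CPM in dEXO, 291 in EXO and 60.0 in PBS, and in spermatids at 401 CPM in dEXO, 357 in EXO and 409.9 in PBS. PBS late spermatocytes, the 12 cells, lay lower than the others. Pgk1 ran the other way, with 38.7 CPM in dEXO, 41.8 in EXO and 37.9 in PBS in early germ cells, and 3.75 CPM in dEXO, 4.02 in EXO and 4.18 in PBS in late spermatocytes. In spermatids it was above late spermatocytes again, at 7.65 CPM in dEXO, 8.85 in EXO and 7.61 in PBS. Over the libraries together Pgk1 was at 7.27 and 1.39 CPM in the late spermatocyte clusters and at 2.90, 8.34 and 19.0 CPM along the deeper spermatid clusters, the last being the highest of these 5. Pgk2 was at 108 CPM in the first late spermatocyte cluster, 323 CPM in the next and 413 CPM in the last spermatid cluster.

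Glyceraldehyde-3-phosphate dehydrogenase, the step just before, differed in its timing: Gapdh was already low in late spermatocytes, where Gapdhs was not yet high. Gapdh stood at 571 CPM in dEXO, 515 in EXO and 644 in PBS in early germ cells, and at 20.1 CPM in dEXO, 17.9 in EXO and 18.1 in PBS in late spermatocytes. Gapdhs, whose product is bound to the fibrous sheath of the sperm tail, stood at 32.5 CPM in dEXO, 30.9 in EXO and 1.39 in PBS in late spermatocytes. In spermatids it stood at 302 CPM in dEXO, 261 in EXO and 377 in PBS, above late spermatocytes in each library. Libraries together, the first late spermatocyte cluster had 5.68 CPM of Gapdhs and the next 48.1 CPM. Along the deeper spermatid clusters Gapdhs was at 162, 328 and 551 CPM, higher in each than in the one before. Over these same clusters Ldhc and Ldha were lower in each than in the one before.

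Pdha2, the germ-cell alpha subunit of the enzyme that turns pyruvate into acetyl-CoA, was near Pdha1 in early germ cells and far above it later. In early germ cells Pdha2 had 24.0 CPM in dEXO, 18.5 in EXO and 15.7 in PBS, where Pdha1 had 14.7 CPM in dEXO, 15.8 in EXO and 14.8 in PBS. In late spermatocytes Pdha2 had 211 CPM in dEXO, 225 in EXO and 378 in PBS, and in spermatids 208 CPM in dEXO, 199.9 in EXO and 235 in PBS. Of the named germ clusters, the first of the late spermatocytes was the highest for Pdha2, with 315 CPM over the libraries together, against 157 CPM in the next and 227 CPM in the last spermatid cluster. Pdha1 had 0.869 CPM in dEXO, 0.922 in EXO and 1.06 in PBS in spermatids. Slc16a1, the lactate transporter, was a gene of early germ cells by these counts, with 49.7 CPM in dEXO, 48.1 in EXO and 52.3 in PBS. It had 1.25 CPM in dEXO, 2.17 in EXO and 2.79 in PBS in late spermatocytes, and 1.30 CPM in dEXO, 1.17 in EXO and 0.885 in PBS in spermatids.

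**Figure D1:**
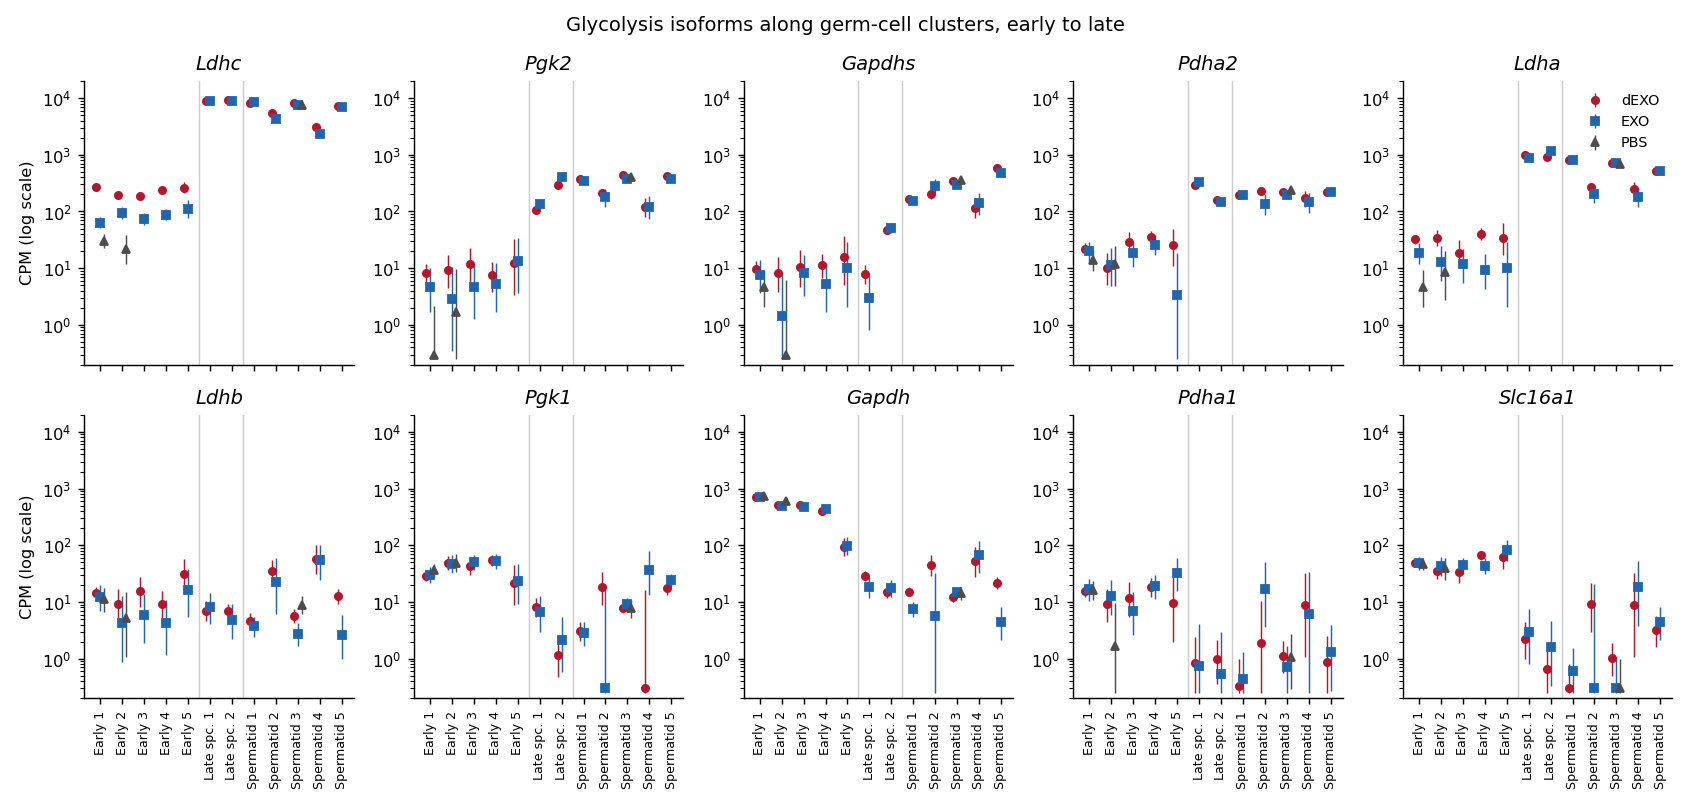
Level of each of the 10 genes (CPM, log scale) in 12 named germ clusters ordered from early germ cells to late spermatids; points are the dEXO, EXO and PBS libraries with at least 20 cells in the cluster, bars are 95% counting intervals, and a count of 0 is drawn at 0.3 CPM. Ldhc, Pgk2, Pdha2 and Ldha step up at the first late spermatocyte cluster (Late spc. 1) and Gapdhs later, Gapdh, Pdha1 and Slc16a1 lie lower in most late clusters than in the early ones, and the shallow clusters are Spermatid 2 and Spermatid 4.

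As a share of its enzyme family, each germ-cell isoform made up most of the UMIs in spermatids. Of the lactate dehydrogenase UMIs of spermatids, 91.7% in dEXO, 91.5% in EXO and 91.8% in PBS were of Ldhc. Of the phosphoglycerate kinase UMIs, 98.1% in dEXO, 97.6% in EXO and 98.2% in PBS were of Pgk2. The Gapdhs share was 94.96% in dEXO, 96.0% in EXO and 96.7% in PBS, and the Pdha2 share 99.6% in dEXO, 99.5% in EXO and 99.6% in PBS. In each of these 4 shares the libraries lay within a few percentage points of each other. In late spermatocytes the Ldhc share was 90.6% in dEXO, 89.6% in EXO and 87.6% in PBS, the Pgk2 share 98.4% in dEXO, 98.6% in EXO and 93.5% in PBS and the Pdha2 share 99.6% in dEXO, 99.7% in EXO and 98.9% in PBS. The Gapdhs share stood apart there, with 61.8% in dEXO, 63.3% in EXO and 7.14% in PBS; the PBS value rests on 1 of 14 UMIs and has an interval of 0.181 to 33.9%.

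In early germ cells the shares differed more between libraries. The Ldhc share was 83.9% in dEXO, 79.0% in EXO and 66.9% in PBS and the Pdha2 share 62.0% in dEXO, 53.9% in EXO and 51.6% in PBS. The Pgk2 share was 18.5% in dEXO, 10.9% in EXO and 0.840% in PBS and the Gapdhs share 1.76% in dEXO, 1.21% in EXO and 0.496% in PBS. All 4 were highest in dEXO and lowest in PBS, although for Pdha2 the intervals of dEXO (56.1 to 67.7) and PBS (41.1 to 62.0) overlapped. In somatic classes Ldhc took up much of the family where Ldha and Ldhb were low: its share in macrophages was 80.4% in dEXO, 63.3% in EXO and 45.9% in PBS, and in Sertoli cells 27.7% in dEXO, 12.8% in EXO and 4.56% in PBS.

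**Figure D2:**
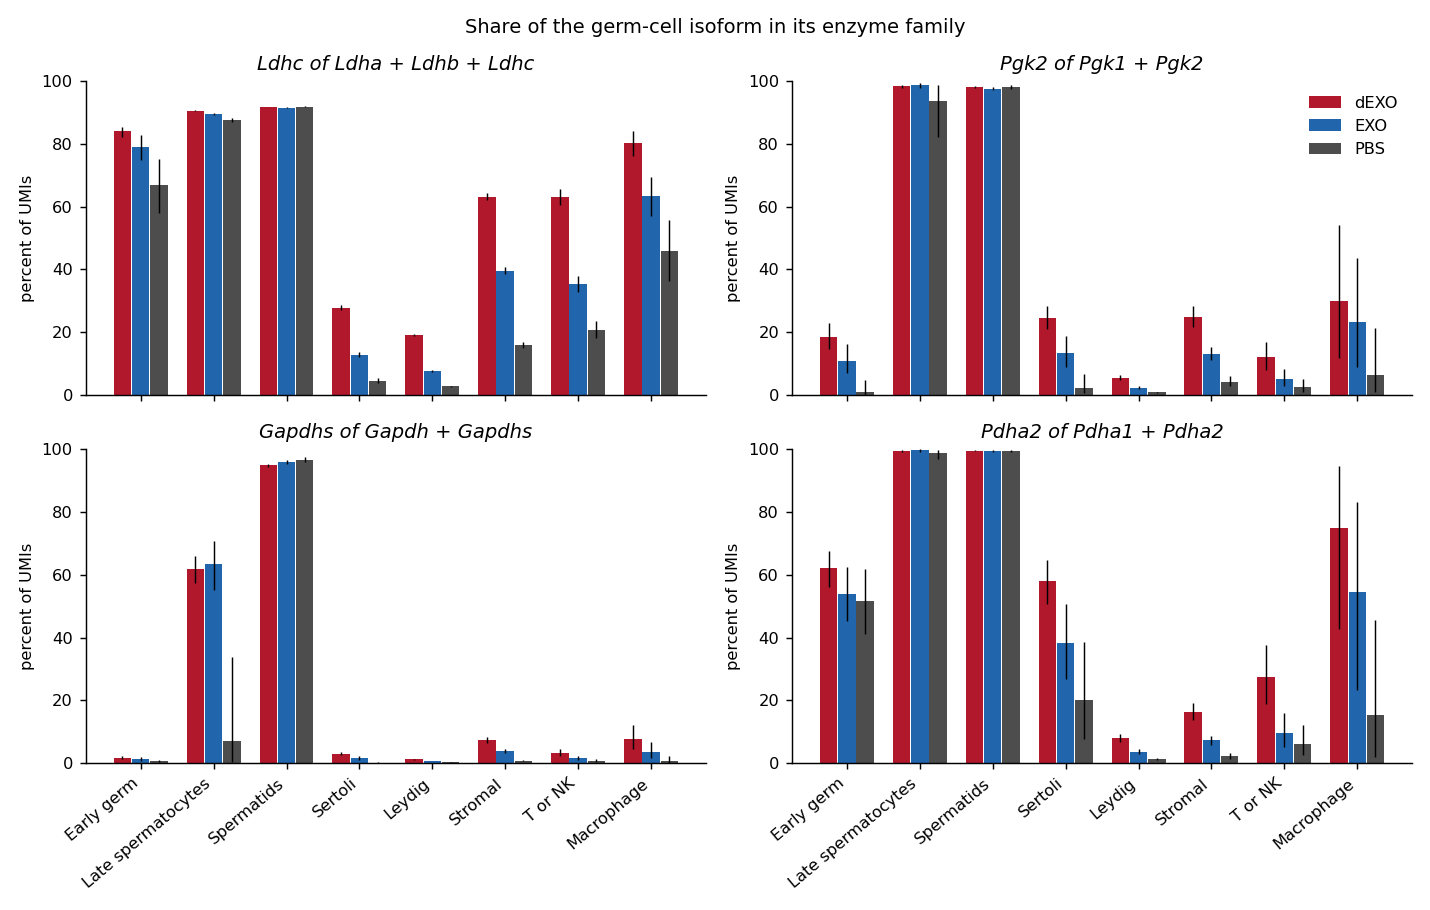
Share of each germ-cell isoform in the summed UMIs of its enzyme family (percent) by class and library, as bars for dEXO, EXO and PBS with exact 95% counting intervals. In spermatids every share is at or above 91.5% (the EXO Ldhc share), while in each somatic class the Ldhc share is highest in dEXO and lowest in PBS.

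Most single spermatids carried both Ldhc and Ldha. Of spermatids, 62.8% in dEXO, 61.8% in EXO and 80.3% in PBS had at least 1 UMI of both Ldhc and Ldha, and 2 spermatids in dEXO, 2 in EXO and 0 in PBS had Ldha without Ldhc. Gapdhs and Gapdh were seen together in fewer, 21.9% in dEXO, 21.4% in EXO and 30.3% in PBS. Pdha2 and Pdha1 were seen together in 2.06% in dEXO, 3.05% in EXO and 6.58% in PBS. Absence of a UMI in a cell does not show absence of the transcript at this depth.

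Somatic classes kept the somatic isoforms, in proportions of their own. Ldhb was highest in Sertoli cells, with 1834 CPM in dEXO, 1942 in EXO and 2057 in PBS. Leydig cells, the androgen makers of the interstitium, had 668 CPM in dEXO, 639 in EXO and 700.4 in PBS, and stromal cells had 243 CPM in dEXO, 254 in EXO and 299 in PBS. Macrophages and T or NK cells were lowest, with 51.7 CPM in dEXO, 30.8 in EXO and 22.8 in PBS for macrophages. T or NK cells had 38.4 CPM in dEXO, 32.7 in EXO and 32.8 in PBS. The order of Sertoli, Leydig and stromal cells, and of these above both immune classes, was the same in all 3 libraries. Macrophages and T or NK cells had overlapping intervals, with macrophages higher in dEXO and lower in EXO and PBS. Ldha had the opposite leader: T or NK cells had 464 CPM in dEXO, 538 in EXO and 406 in PBS, more than any other somatic class in every library, while Sertoli cells had 182 CPM in dEXO, 123 in EXO and 102 in PBS. Of the Ldha and Ldhb UMIs of Sertoli cells, 91.0% in dEXO, 94.0% in EXO and 95.3% in PBS were of Ldhb. In T or NK cells it was 7.63% in dEXO, 5.73% in EXO and 7.48% in PBS.

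Pgk1 and Gapdh were likewise highest in T or NK cells. Pgk1 had 191 CPM in dEXO, 185 in EXO and 164 in PBS there, against 125 CPM in dEXO, 127 in EXO and 136 in PBS for Leydig cells. Gapdh had 945 CPM in dEXO, 988 in EXO and 1048 in PBS for T or NK cells, and was lowest in stromal cells with 319 CPM in dEXO, 309.8 in EXO and 475 in PBS. Pdha1 was highest in stromal cells, with 103 CPM in dEXO, 103 in EXO and 97.4 in PBS, and Leydig cells came after stromal and T or NK cells with 48.8 CPM in dEXO, 48.4 in EXO and 55.3 in PBS. Sertoli cells and macrophages had the least Pdha1, with overlapping intervals in each library. Slc16a1 was higher in Leydig, Sertoli and stromal cells than in the immune classes. Leydig cells had 112 CPM in dEXO, 91.7 in EXO and 84.8 in PBS, and Sertoli cells 103 CPM in dEXO, 101 in EXO and 75.5 in PBS. Stromal cells had 73.6 CPM in dEXO, 89.0 in EXO and 67.0 in PBS, while T or NK cells had 20.1 CPM in dEXO, 12.4 in EXO and 5.36 in PBS. Leydig cells led in dEXO and PBS and Sertoli cells in EXO, and the intervals of these 2 classes overlapped in every library.

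Between libraries, spermatids carried nearly the same isoform levels in all 3 groups. In spermatids the log2 ratio of dEXO to PBS was 0.05 (0.03 to 0.07) for Ldhc, 0.07 (0.02 to 0.12) for Ldha and -0.03 (-0.10 to 0.04) for Pgk2. A ratio was counted only with at least 50 UMIs over both libraries. Of the 8 genes with that many, 0 were at least 2-fold higher and 0 at least 2-fold lower in dEXO spermatids than in PBS, where 3.65% of all genes were higher and 0.79% lower. Gapdhs was somewhat lower in both exosome libraries, with -0.32 (-0.39 to -0.25) for dEXO over PBS and -0.53 (-0.60 to -0.45) for EXO over PBS, less than 2-fold in each. The mix of spermatid clusters differed too. The earliest deeper cluster, the one of these with the least Gapdhs, held 130 of 680 spermatids in dEXO, 85 of 393 in EXO and 9 of 76 in PBS. The largest PBS spermatid cluster had 34 cells, under the minimum of 50, so no ratio within clusters was computed. The part of this mix was not tested. In EXO spermatids over PBS, 0 of 8 were 2-fold higher (1.29% of all genes) and 1 was lower (1.3% of all genes). This was Ldhb with -1.30 (-1.85 to -0.75), at 3.87 CPM in EXO and 9.56 CPM in PBS; it was -0.65 with each cell weighted equally and -0.94 without the cells of highest doublet score. Pgk1 was at 0.22 (-0.28 to 0.74) for EXO over PBS, and at 1.57 with each cell weighted equally. The 5 cells with the most Ldhc held 48.3% of the Ldhc UMIs of PBS spermatids, so the PBS sums rest on few cells.

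Between the 2 exosome libraries, 0 of 8 genes were at least 2-fold higher (1.86% of all genes) or lower (0.224% of all genes) in spermatids. Ldhb came nearest, with 0.96 (0.53 to 1.40) for dEXO over EXO. Pgk1 had -0.21 (-0.54 to 0.12), and -1.14 with each cell weighted equally. In late spermatocytes 0 of 7 were at least 2-fold higher (3.08% of all genes) and 0 lower (0.222% of all genes) for dEXO over EXO. Ldhc had a log2 ratio of 0.02 (-0.00 to 0.04) there, Pgk2 -0.36 (-0.47 to -0.25) and Pdha2 -0.09 (-0.22 to 0.03). Gapdhs was 0.07 (-0.26 to 0.41), but 1.81 at a finer clustering and 1.72 with at most 10% mitochondrial UMIs, so no direction is given for it. Ldhb was 0.17 (-0.57 to 0.97), and -1.87 with each cell weighted equally.

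In early germ cells and in all 5 somatic classes the levels of Ldhc, Pgk2, Gapdhs and Pdha2 were ordered dEXO above EXO above PBS in the class sums, though many of the counts were small. For Ldhc in Sertoli cells the order of EXO and PBS did not hold with cells thinned or weighted equally, as given below. Early germ Ldhc had a log2 ratio of 3.15 (2.83 to 3.48) for dEXO over PBS, 1.56 (1.22 to 1.92) for EXO over PBS and 1.59 (1.42 to 1.76) for dEXO over EXO. The last value was 0.49 with every cell thinned to 1000 UMIs and 0.94 with each cell weighted equally, and 1 dEXO cell held 218 of the 1797 Ldhc UMIs. Of the 10 genes 4 were at least 2-fold higher in dEXO early germ cells than in PBS, where 5.45% of all genes were: Ldhc, Pgk2, Gapdhs and Ldha. Ldha had 2.88 (2.10 to 3.77), while Pgk2 had 4.77 (2.24 to 10.09) against 1 UMI in PBS. Gapdhs had 1.67 (0.72 to 2.79), but 0.34 with each cell weighted equally. Pdha2 had 0.61 (0.14 to 1.10), short of 2-fold, and 1.22 with each library clustered alone. Ldhb had 0.57 (-0.05 to 1.23), and 1.01 with each cell weighted equally, and Pgk1, Pdha1 and Slc16a1 had intervals that spanned 0. For EXO over PBS 2 of 8 were higher (1.56% of all genes), namely Ldhc and Ldha, and for dEXO over EXO 2 of 10, again Ldhc and Ldha (4.12% of all genes). At least 2-fold lower in early germ cells were 0 of 10 for dEXO over PBS (0.28% of all genes), 0 of 8 for EXO over PBS (1.12%) and 0 of 10 for dEXO over EXO (0.248%). The comparisons with PBS share that library and are not independent of each other.

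In Leydig cells the germ isoforms differed between libraries by far more than the somatic ones. Ldhc was at 185 CPM in dEXO, 63.8 in EXO and 23.1 in PBS, a log2 ratio of 3.001 (2.92 to 3.08) for dEXO over PBS, 1.46 (1.37 to 1.55) for EXO over PBS and 1.54 (1.47 to 1.61) for dEXO over EXO. Pgk2 had 2.77 (2.37 to 3.18), Gapdhs 2.52 (2.19 to 2.86) and Pdha2 2.54 (2.04 to 3.05) for dEXO over PBS. These 4 germ isoforms were the only ones of the 10 at least 2-fold higher, in dEXO over PBS (11.4% of all genes), EXO over PBS (7.31%) and dEXO over EXO (6.82%). In Leydig cells 0 of 10 were at least 2-fold lower for dEXO over PBS (2.45% of all genes), EXO over PBS (1.54%) or dEXO over EXO (1.32%). Gapdhs for dEXO over EXO was 1.14, and 0.99 with each library clustered alone. Pdha2 for EXO over PBS was 1.32, and 0.98 without the cells of highest doublet score. Among the somatic genes Ldha had -0.17 (-0.23 to -0.11), Ldhb -0.07 (-0.09 to -0.04), Gapdh -0.15 (-0.17 to -0.13) and Slc16a1 0.40 (0.33 to 0.46) for dEXO over PBS. Different clusters held most Leydig cells, c2 in dEXO with 1460 cells and c5 in PBS with 1066, and Ldhc was higher in dEXO within each of the 3 Leydig clusters. Its log2 ratio of dEXO over PBS was 2.51 in c2, 3.12 in c3 and 2.96 in c5. The ratio of Ldha was 0.12 in c2, -0.17 in c3 and -0.06 in c5. That of Ldhb was -0.02 in c2, -0.06 in c3 and 0.07 in c5, so neither kept its sign within the clusters. Gapdh was below 0 and Slc16a1 above 0 in each of the 3 clusters.

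In stromal cells Ldhc was at 776 CPM in dEXO, 276 in EXO and 87.3 in PBS. The median gene of stromal cells lay at 0.23 for dEXO over PBS and 0.26 for EXO over PBS, and relative to it Ldhc was at 2.92 for dEXO over PBS and 1.40 for EXO over PBS. The same 4 germ isoforms were at least 2-fold higher in stromal cells for dEXO over PBS (12.5% of all genes), for EXO over PBS (8.92%) and for dEXO over EXO (7.08%). There 0 of 10 were lower for dEXO over PBS (0.385% of all genes), EXO over PBS (0.349%) or dEXO over EXO (0.377%). For dEXO over EXO Gapdhs was 1.03 and Pgk2 1.09, but thinned to 1000 UMIs per cell they were 0.77 for Gapdhs and 0.85 for Pgk2. Different clusters held the most stromal cells, c0 in dEXO with 1257 of 3144 cells and c1 in PBS with 1042 of 2036. Within the 4 stromal clusters the log2 ratio of Ldhc for dEXO over PBS was 2.87 to 2.999. Gapdh had -0.58 for dEXO over PBS and -0.62 for EXO over PBS in the class sums, short of 2-fold. Within the clusters it was nearer 0, at -0.37 to -0.26 for dEXO over PBS and -0.52 to -0.20 for EXO over PBS. In T or NK cells Ldhc had 2.91 (2.67 to 3.15) for dEXO over PBS, and 1 of 6 measured genes was 2-fold higher (6.43% of all genes). In macrophages it had 2.84 (2.40 to 3.30), and 1 of 3 was 2-fold higher (5.42% of all genes). For EXO over PBS Ldhc was again the only one past 2-fold in T or NK cells (1 of 6, 2.45% of all genes), with 1.45 (1.19 to 1.71), and in macrophages (1 of 3, 2.28%), with 1.46 (1.00 to 1.95). For dEXO over EXO, 2 of 7 were higher in T or NK cells, Ldhc with 1.46 and Gapdhs with 1.07 (5.3%), where Gapdhs was 0.90 with TMM factors. In macrophages 1 of 3 was higher for dEXO over EXO, Ldhc with 1.38 (4.67%). At least 2-fold lower in T or NK cells were 0 measured genes for dEXO over PBS (1.14% of all genes), EXO over PBS (1.07%) and dEXO over EXO (0.605%). The same count of 0 held in macrophages for dEXO over PBS (2.71%), EXO over PBS (2.53%) and dEXO over EXO (0.746%).

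**Figure D3:**
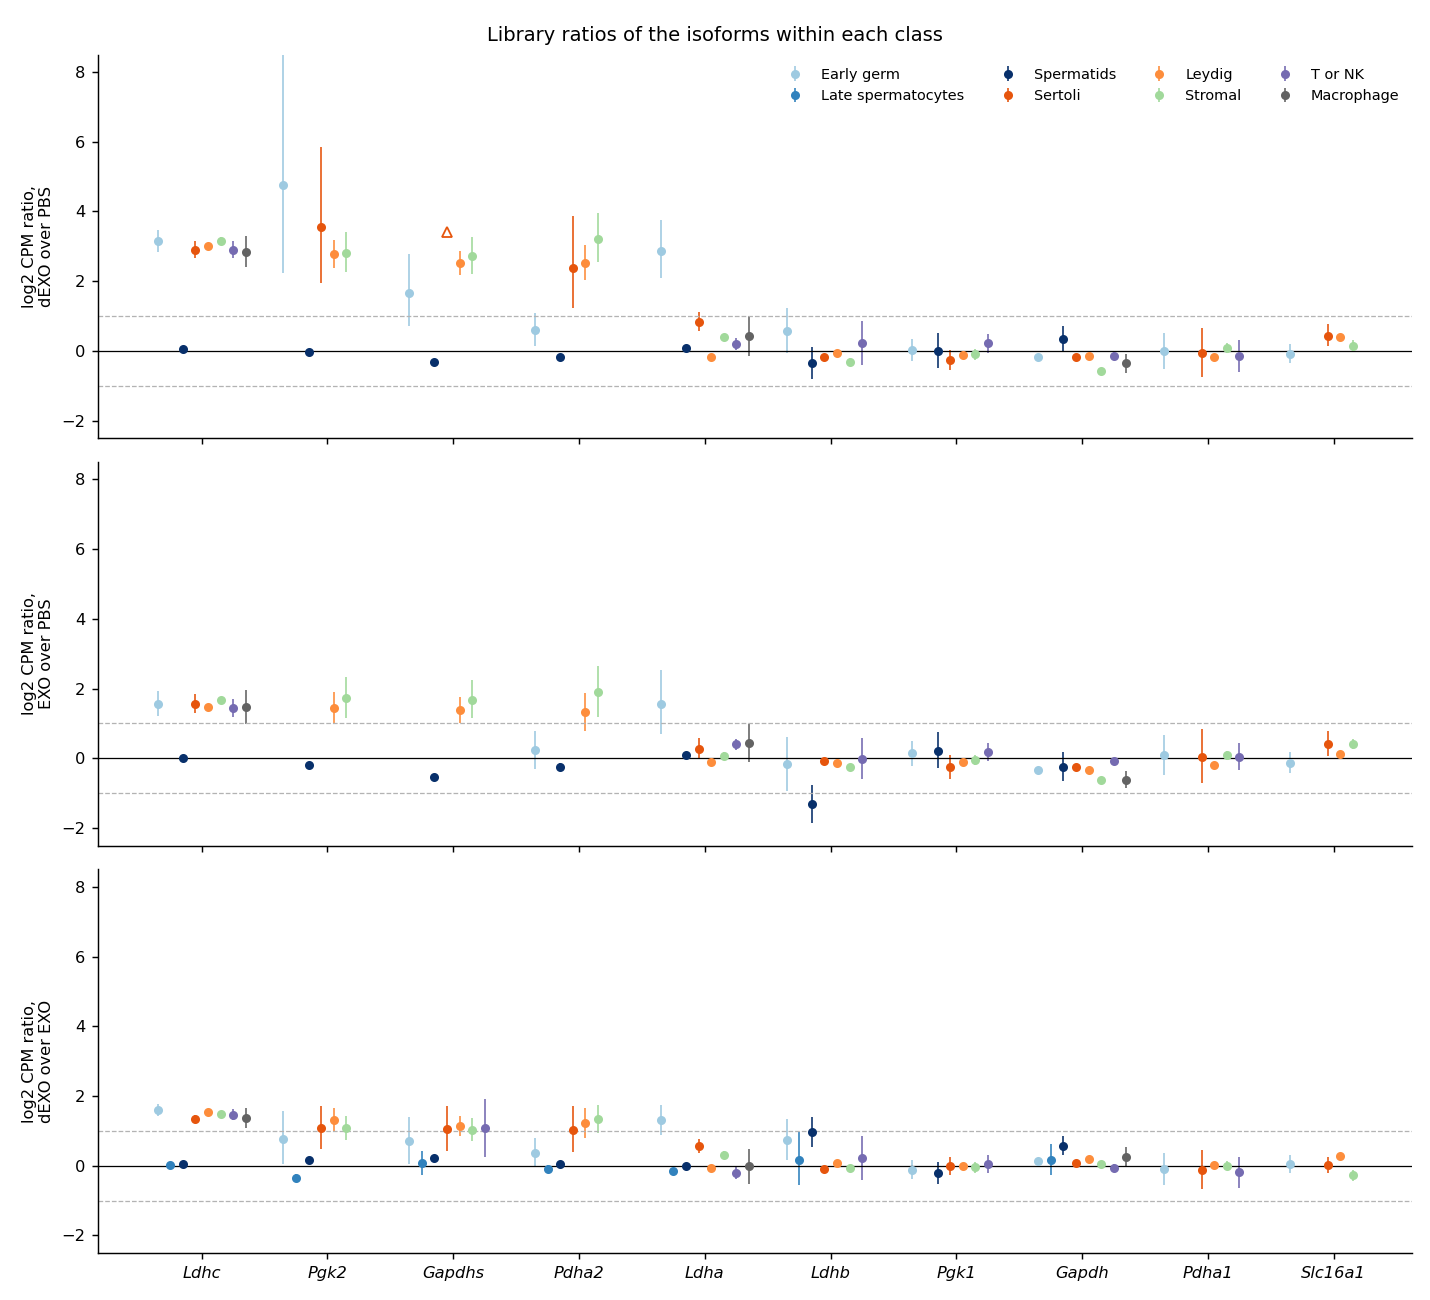
Log2 ratio of CPM between libraries for the 10 genes (dEXO over PBS, EXO over PBS, dEXO over EXO from top to bottom). Each point is 1 class with at least 50 cells and 50 UMIs, with 95% counting intervals. Dashed lines mark 2-fold, and the Pgk2 interval of early germ cells runs past the axis. The open triangle is a ratio against a count of 0 set to a floor of 3 UMIs. Ldhc, Pgk2, Gapdhs and Pdha2 lie above 0 outside late germ cells. In spermatids Ldhc, Pgk2 and Pdha2 lie near 0, and Gapdhs lies below 0 in the comparisons with PBS. The other genes lie near 0 in most classes.

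Droplet libraries hold free RNA from broken cells, which adds UMIs of abundant transcripts to every droplet, and Ldhc was among the most abundant late germ transcripts here. In each library most Ldhc UMIs lay in germ clusters, with 94.9% in dEXO, 95.7% in EXO and 94.6% in PBS. Ldhc made up a share of all UMIs of 0.350% in dEXO, 0.196% in EXO and 0.0580% in PBS, and late germ cells held a share of all UMIs of 34.8% in dEXO, 21.4% in EXO and 6.60% in PBS. The order of the libraries in both shares was that of Ldhc outside the late germ cells. Leydig cells carried a mean per cell of 2.66 Ldhc UMIs in dEXO, 1.08 in EXO and 0.721 in PBS. Stromal cells carried 1.67 UMIs in dEXO, 0.694 in EXO and 0.417 in PBS, and T or NK cells 2.11 UMIs in dEXO, 0.909 in EXO and 0.523 in PBS. Early germ cells carried 4.11 UMIs in dEXO, 1.51 in EXO and 0.810 in PBS. Macrophages carried 2.24 UMIs in dEXO, 0.975 in EXO and 0.633 in PBS, where the EXO and PBS intervals overlapped. Sertoli cells carried the most, 6.72 UMIs in dEXO, 2.94 in EXO and 1.70 in PBS. From the lowest of these 6 classes to the highest the mean per cell differed 4.04-fold in dEXO, 4.24-fold in EXO and 4.09-fold in PBS, and the CPM differed 4.90-fold in dEXO, 5.49-fold in EXO and 5.48-fold in PBS.

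On the CPM scale Leydig and early germ cells, whose median cells held the most UMIs, had the lowest Ldhc of these 6 classes in each library. Macrophages had the highest, 908 CPM in dEXO, 349.9 in EXO and 127 in PBS, and T or NK cells were next with 861 CPM in dEXO, 313 in EXO and 115 in PBS. The median T or NK cell had 2062 UMIs in dEXO, 2412 in EXO and 4027 in PBS, and the median Leydig cell 13329 UMIs in dEXO, 16545 in EXO and 29903 in PBS. At least 1 Ldhc UMI was found in a share of T or NK cells of 82.1% in dEXO, 53.8% in EXO and 37.6% in PBS, and in a share of Leydig cells of 87.3% in dEXO, 60.9% in EXO and 46.0% in PBS. With every cell thinned to 1000 UMIs the share was 56.3% in dEXO, 30.04% in EXO and 15.2% in PBS for T or NK cells. It was 18.2% in dEXO, 6.43% in EXO and 2.19% in PBS for Leydig cells and 51.2% in dEXO, 23.4% in EXO and 9.43% in PBS for stromal cells. Early germ cells had 19.5% in dEXO, 16.0% in EXO and 4.76% in PBS, against 97.8% in dEXO, 92.2% in EXO and 95.8% in PBS for spermatids. Sertoli cells had 42.4% in dEXO, 23.2% in EXO and 20.8% in PBS. T and NK cells are a class that should lack Ldhc, and of the other 5 classes outside late germ cells only Sertoli cells in PBS had a higher thinned share, with overlapping intervals. Thinning takes a larger part of the UMIs of a deep cell, and without it Leydig and early germ cells carried more Ldhc UMIs per cell than T or NK cells in every library. Because the classes differ this much in depth, no source of these UMIs is read from the thinned shares.

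**Figure D4:**
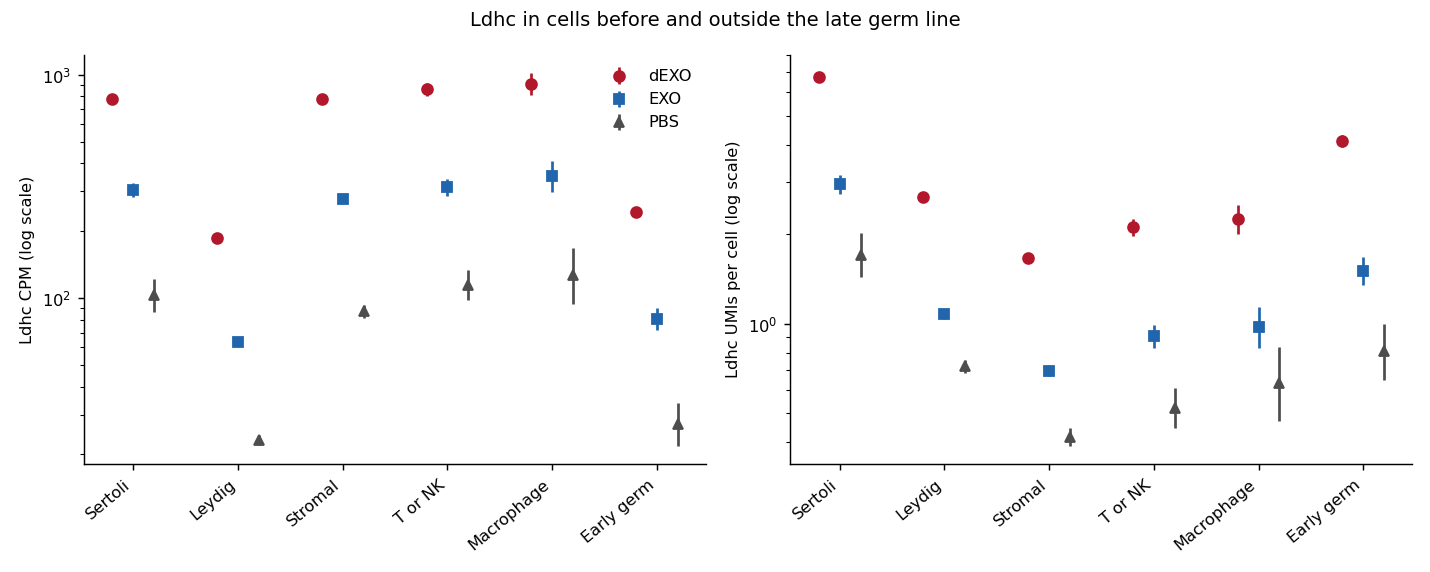
Ldhc outside late germ cells as CPM (left, log scale) and as UMIs per cell (right, log scale) by class, with 1 point per library (dEXO, EXO, PBS) and 95% counting intervals. Every class lies highest in dEXO and lowest in PBS on both scales, with overlapping EXO and PBS intervals for macrophages per cell, and the Sertoli sums rest on few cells.

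Within a library, RNA from 1 source keeps its genes' counts in 1 ratio in every class, so the other germ isoforms were set beside Ldhc. In late germ cells the number of Pgk2 UMIs per 100 Ldhc UMIs was 4.23 in dEXO, 4.36 in EXO and 4.71 in PBS. In Leydig cells it was 3.91 in dEXO, 4.56 in EXO and 4.602 in PBS, and the intervals of both classes overlapped in every library. In dEXO it was lower in stromal cells, at 2.997 (2.54 to 3.51), and in Sertoli cells, at 3.38 (2.81 to 4.03), and neither interval overlapped that of late germ cells (4.15 to 4.31). For Pdha2 the Leydig and late germ intervals also overlapped in every library, with 2.52 in dEXO, 2.57 in EXO and 3.20 in PBS UMIs per 100 Ldhc UMIs for late germ cells and 2.24 in dEXO, 2.80 in EXO and 3.09 in PBS for Leydig cells. Gapdhs differed: late germ cells had 2.69 in dEXO, 2.81 in EXO and 4.25 in PBS UMIs per 100 Ldhc UMIs, and Leydig cells 4.90 in dEXO, 6.46 in EXO and 6.84 in PBS. The Leydig value was above that of late germ cells, with intervals that did not overlap in any library. The same held against spermatids alone (3.80 in dEXO, 3.37 in EXO and 4.91 in PBS). Over the libraries together, the last spermatid cluster had 551 CPM of Gapdhs and 7250 CPM of Ldhc. That is more Gapdhs per Ldhc than in the Leydig cells of any library. Stromal cells had 3.23 in dEXO, 4.42 in EXO and 4.36 in PBS Gapdhs UMIs per 100 Ldhc UMIs, with intervals that overlapped those of late germ cells in dEXO and PBS and not in EXO.

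Early germ cells departed from late germ cells in Pdha2. They had 9.91 in dEXO, 22.9 in EXO and 57.6 in PBS Pdha2 UMIs per 100 Ldhc UMIs, more than any somatic class of the same library. Pdha2 in early germ cells was at 11.5% in dEXO, 9.05% in EXO and 6.26% in PBS of its late germ level. Ldhc was at 2.93% in dEXO, 1.02% in EXO and 0.347% in PBS. The median of 13 other late germ genes was 2.74% in dEXO, 1.58% in EXO and 0.601% in PBS. The highest of the 13 was Clgn, at 10.9% in dEXO, 10.1% in EXO and 7.30% in PBS. Pdha2 therefore lay above their range in dEXO and within it in EXO and PBS. The log2 ratio of dEXO over PBS was 0.61 for Pdha2 in these cells and 3.15 for Ldhc. For a single UMI, free RNA and RNA made in the cell cannot be told apart.

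In Leydig cells all 4 isoforms lay within the range of those 13 genes in every library. The top of that range was Insl6, at 6.68% in dEXO, 5.25% in EXO and 6.37% in PBS. Its Leydig levels were close together, unlike those of Ldhc, with 30.4 CPM in dEXO, 24.7 in EXO and 23.2 in PBS. The next highest of the 13 in dEXO was Odf1 at 3.92%, so without Insl6 Gapdhs lay above the range there. Ldhc was at 2.24% in dEXO, 0.803% in EXO and 0.294% in PBS of its late germ level, and Pgk2 at 2.07% in dEXO, 0.840% in EXO and 0.287% in PBS. Gapdhs was at 4.07% in dEXO, 1.85% in EXO and 0.473% in PBS and Pdha2 at 1.99% in dEXO, 0.876% in EXO and 0.284% in PBS, beside a median of 2.69% in dEXO, 1.496% in EXO and 0.360% in PBS for the 13. In stromal cells Ldhc was at 9.38% in dEXO, 3.48% in EXO and 1.11% in PBS, and the median of the 13 was 9.63% in dEXO, 5.17% in EXO and 1.49% in PBS. The part of free RNA in the ratios between libraries was not tested.

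**Figure D5:**
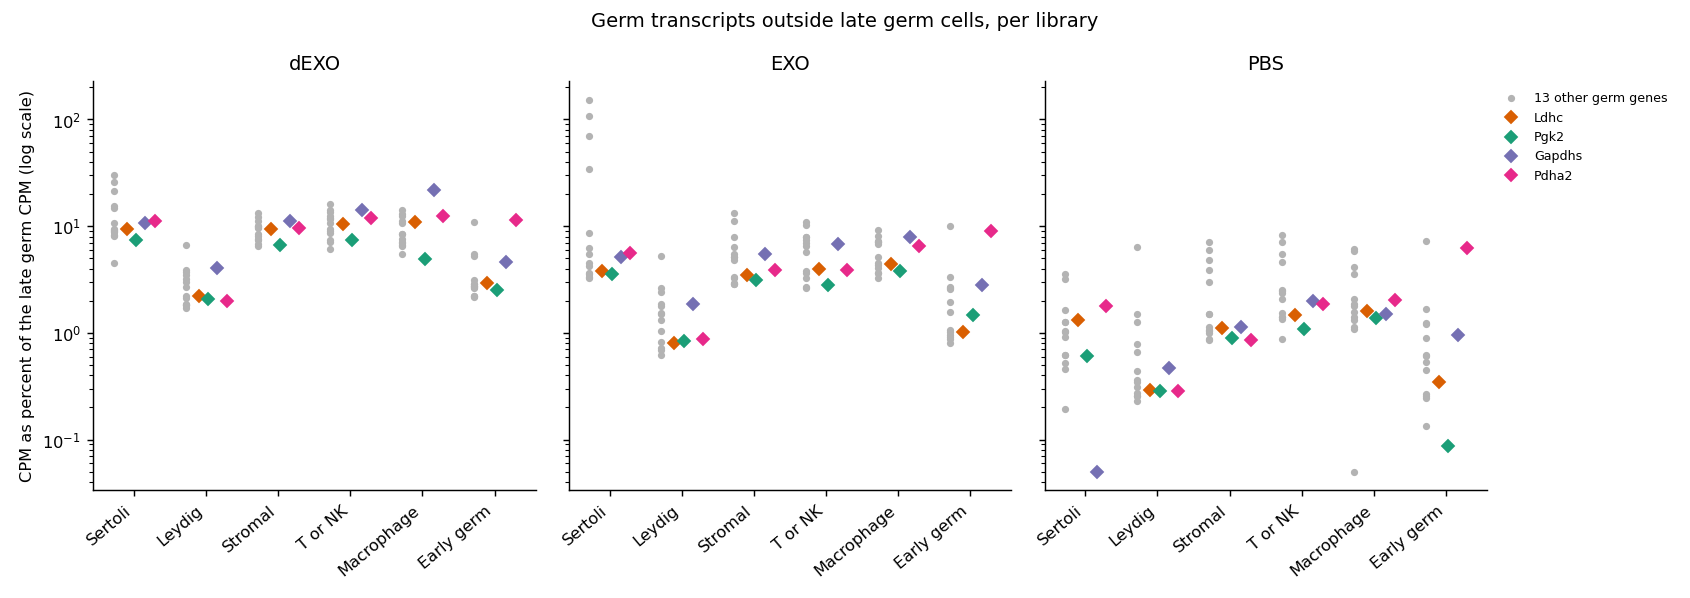
CPM of Ldhc, Pgk2, Gapdhs and Pdha2 (diamonds) and of 13 other germ genes (grey points) in each class outside late germ cells, as percent of the CPM in late germ cells of the same library (log scale), in the dEXO, EXO and PBS libraries; a value of 0 is drawn at 0.05%. The isoforms lie with the other germ genes in most classes and lower in PBS than in dEXO. Pdha2 and the grey point of Clgn stand high in early germ cells. In Sertoli cells 4 grey points (Prm1, Prm2, Tnp1 and Tnp2) stand above the rest in dEXO and EXO.

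In Sertoli cells a few cells held much of the Ldhc. Of the class's Ldhc UMIs, the 5 cells with the most held 32.3% in dEXO, 55.5% in EXO and 61.6% in PBS, and the single highest cell had 564 Ldhc UMIs in dEXO, 171 in EXO and 41 in PBS. The class sum was 773 CPM in dEXO, 304 in EXO and 103 in PBS; without those 5 cells per library it was 544 CPM in dEXO, 143 in EXO and 40.2 in PBS. The log2 ratio for dEXO over PBS was 2.91 (2.66 to 3.16), and 3.76 without them; for EXO over PBS it was 1.56 (1.29 to 1.83), and 1.83 without them. For EXO over PBS it was -0.050 thinned to 1000 UMIs per cell and 0.01 with each cell weighted equally, so no direction is given for Ldhc in Sertoli cells between EXO and PBS. For dEXO over EXO Ldhc was at 1.35 (1.23 to 1.47), but at 0.48 with each library clustered alone. Ldhc, Pgk2, Gapdhs and Pdha2 were the 4 of 10 genes at least 2-fold higher in Sertoli cells for dEXO over PBS (11.4% of all genes) and for dEXO over EXO (5.09%, where all 4 fell short of 2-fold with each library clustered alone), and Ldhc the 1 of 7 for EXO over PBS (4.06%). The number at least 2-fold lower in Sertoli cells was 0 for dEXO over PBS (1.4% of all genes), EXO over PBS (1.27%) and dEXO over EXO (0.478%). Pdha2 for dEXO over PBS was 2.39, and 0.23 with each cell weighted equally; Pdha1 was -0.07, and 1.09 weighted so. Gapdhs had 0 UMIs in PBS Sertoli cells, so that dEXO was at least 8.44-fold higher by the lower limit of the interval. That limit uses the count of 0, whereas the ratio itself sets such a count to a floor of 3 UMIs. Protamine and transition protein genes of elongating spermatids were above PBS in both exosome libraries but, unlike Ldhc, were higher in EXO than in dEXO. Prm1 was at 139 CPM in dEXO, 444 in EXO and 17.9 in PBS Sertoli cells, or 25.9% in dEXO, 153% in EXO and 3.60% in PBS of its late germ level. Prm2, Tnp1 and Tnp2 had the same order of libraries, and the part of such RNA in the Ldhc ratios was not tested.

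The remaining steps from glucose to lactate and acetyl-CoA were covered by 43 further genes, described by counts. In Leydig cells 37 were measured for dEXO over PBS; 8 were at least 2-fold higher (11.4% of all genes) and 1 lower (2.45% of all genes), with a median log2 ratio of 0.03 beside 0.08 over all genes. The highest were Pgam2, a phosphoglycerate mutase of muscle and sperm, with 3.38, and the testis gene Ldhal6b with 3.03. Both were abundant in late germ cells: Ldhal6b had 1879 CPM in dEXO, 1901 in EXO and 1733 in PBS in late spermatocytes, and Pgam2 had 1182 CPM in dEXO, 1226 in EXO and 1072 in PBS. The lower gene was Slc16a3, which encodes the lactate exporter MCT4, with 9.85 CPM in dEXO, 30.7 in EXO and 43.8 in PBS and a log2 ratio of -2.15 for dEXO over PBS, -1.64 for dEXO over EXO and -0.51 for EXO over PBS. It was lower in dEXO than in PBS in each of the 3 Leydig clusters, with 9.49 CPM in dEXO and 43.3 CPM in PBS in c2, and 11.7 CPM in dEXO and 40.7 CPM in PBS in c5. Slc16a3 was at 0.348 CPM in dEXO, 0.553 in EXO and 0.531 in PBS for spermatids. The next lowest, Pdk4, had -0.34.

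In early germ cells 31 of the 43 were measured for dEXO over PBS, of which 6 were 2-fold higher (5.45% of all genes) and 0 lower (0.28% of all genes), with a median of 0.13 beside 0.03 over all genes. Pgam2 had 3.57 and Aldoart2 3.12 at the top, Aldoc -0.36 and Eno1 -0.33 at the bottom. In Sertoli cells 5 of 30 were higher (11.4% of all genes) and 1 lower (1.4% of all genes); Pgam2 had 4.30 and Ldhal6b 2.88, while Ldhd, a D-lactate dehydrogenase, had -1.79 and Slc16a3 -0.45. In stromal cells 6 of 35 were higher (12.5% of all genes) and 0 lower (0.385% of all genes), led by Pgam2 with 3.67 and Aldoart1 with 3.43, and with Mpc1, a mitochondrial pyruvate carrier gene, lowest at -0.41. T or NK cells had 2 of 22 higher, Pgam2 and Ldhal6b (6.43% of all genes), and macrophages 2 of 10, Ldhal6b and Mpc2 (5.42% of all genes). In spermatids 0 of 28 passed 2-fold in either direction; Slc2a3, the glucose transporter GLUT3, had the highest ratio with 0.80 and Pdp1, a pyruvate dehydrogenase phosphatase gene, the lowest with -0.34. In late spermatocytes, dEXO over EXO, 0 of 26 passed 2-fold; Aldoart1 was highest with 0.77 and Pdk3, a pyruvate dehydrogenase kinase gene, lowest with -0.84.

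The testis copies of other glycolytic enzymes were also transcripts of late germ cells. Ldhal6b had 1535 CPM in dEXO, 1574 in EXO and 1515 in PBS for spermatids, lower than in late spermatocytes in each library. Aldoart2, a testis aldolase, had 51.1 CPM in dEXO, 75.8 in EXO and 4.18 in PBS in late spermatocytes. In spermatids it had 325 CPM in dEXO, 358 in EXO and 377 in PBS, higher in each library, as for Gapdhs. Aldoart1 had 89.3 CPM in dEXO, 77.8 in EXO and 102 in PBS for spermatids, and Eno4, an enolase of the sperm tail, 39.2 CPM in dEXO, 31.5 in EXO and 37.2 in PBS.

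Across 23 sums of a class and library, with 14482 genes compared on log2(CPM + 1), the genes most like Ldhc by Pearson's r were Ldhal6b (0.999), Cetn1 (0.998), Crisp2 (0.998). For Pgk2 they were March10 (0.996), Lkaaear1 (0.995), Ccdc192 (0.994), for Gapdhs Kif2b (0.988), Oaz3 (0.979), Smkr-ps (0.976), for Pdha2 Spata33 (0.992), Spata1 (0.992), Ttc6 (0.991) and for Ldha Herc6 (0.937), Ddit3 (0.933), Abhd8 (0.918). These coefficients are descriptions, since the 23 sums share libraries, depth and free RNA. Of these 5 genes, Ldha had the lowest best match.

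Some of these counts could share reads with near-identical copies. In the last 500 bases of their coding transcripts, 67.4% of the 31-base words of Gapdh, 44.4% of those of Ldhb, 24.0% of those of Ldha and 11.1% of those of Pgk1 also occur in transcripts of other genes of the annotation, so the levels of these 4 genes are less certain. Ldhc, Pgk2, Gapdhs, Pdha1, Pdha2 and Slc16a1 shared none, and no pair among the 10 shared any. On the opposite strand Gapdh overlaps Iffo1, Gapdhs overlaps Tmem147os and Gm26935, and Pdha1 overlaps Map3k15. On the same strand Slc16a1 overlaps Gm43581 and Gm43585. The sources used here do not give whether strand was used in counting.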

How the data were processed

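Single-cell suspensions of testis were captured with a droplet 3' kit, 1 library for each of the dEXO, EXO and PBS groups. The deposited matrices hold raw UMI counts per gene and cell barcode; per the file headers, they were written by Cell Ranger 5.0.1. Seurat and GRCm38 are also named, per the submitters' processing notes. Barcodes under 500 UMIs, under 300 genes or above 20% mitochondrial UMIs were left out. Doublets were called with the Scrublet method in scanpy 1.11.5, which called 149 cells in dEXO but 2 in EXO and 4 in PBS. It did not work in EXO and PBS, and in dEXO it called 1.63% of cells where 7.30% were expected. Doublets therefore remain in all 3 libraries, and their removal was uneven between the libraries compared. Clusters (2000 variable genes without the 10 genes described, 30 components, a shared-neighbour graph of 15 neighbours, Leiden resolution 1 with leidenalg 0.10.2; germ clusters clustered again) were named where at least 3 markers of a type were raised, a rule set after the clusters were seen. UMIs were summed per library and class, for classes with at least 50 cells. CPM ratios between libraries have exact conditional binomial intervals, shares have Clopper-Pearson intervals (scipy 1.17.1), both tested on simulated data. A ratio was called at 2-fold, and genes with under 50 UMIs over both libraries were left out. UMIs of 1 cell are not independent, so intervals are too narrow as a measure of cells. Thinning to 1000 UMIs left out 1119 cells in dEXO, 888 in EXO and 226 in PBS. Alternatives are described at the end; TMM factors came from edgeR 4.0.16. The genes and gene lists were chosen with earlier results of these data known. Beyond the 10 genes, the text names the genes of the list with the highest and lowest ratio of dEXO over PBS in each class (dEXO over EXO in late spermatocytes), and the 3 genes most like each isoform; Slc16a3 by cluster was chosen after its values were seen. Promoter letters come from RefSeq, GRCm38.p6.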

Additional observations from a re-analysis of the deposited data

How the results depend on the processing

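No paired analysis was possible because each group has 1 library, and no library could be left out. Over 12 alternatives, 2277 values of 247 results were recomputed. Of these, 1837 moved by less than their counting interval, 439 moved by more and 1, of a ratio past 2-fold, changed direction. Sign changes of smaller ratios are given below. Leaving out clusters with few UMIs moved none, since no named cluster was that shallow. With no doublets removed, no cluster was named Sertoli, so that alternative gave no Sertoli value. Of 512 recomputed values of the 49 ratios past 2-fold, 511 kept their sign, and 22 fell short of 2-fold. Of 1295 recomputed values of the 125 smaller ratios, 118 changed sign and 9 passed 2-fold. Of the sign changes, 23 were of ratios with an interval that did not span 0, so an interval off 0 does not fix the direction of a small ratio. The 1 reversal among ratios past 2-fold was Ldhc in Sertoli cells for EXO over PBS, at -0.050 with cells thinned to 1000 UMIs. The cause was not tested. In Leydig cells the log2 ratio of Ldhc for dEXO over PBS, 3.001 as reported, was 3.36 with thinned cells and 2.80 with TMM factors. For EXO over PBS, 1.46 as reported, it was 1.37 without the cells of highest doublet score, 1.37 at Leiden resolution 2, 1.64 thinned, 1.59 weighted equally and 1.36 with TMM factors. For dEXO over EXO, 1.54 as reported, it was 1.62 without the cells of highest doublet score, 1.72 thinned, 1.45 weighted equally and 1.44 with TMM factors. In late spermatocytes the Ldhc share of dEXO, 90.6% as reported, was 90.3% without the cells of highest doublet score, 90.8% at Leiden resolution 2, 91.2% thinned and 90.4% weighted equally. That of EXO, 89.6% as reported, was 91.1% at Leiden resolution 2, 91.1% at the 10% mitochondrial limit, 91.0% thinned and 90.7% weighted equally. In spermatids the Gapdhs share of dEXO, 94.96% as reported, was 95.6% without the cells of highest doublet score, 88.7% thinned and 87.7% weighted equally. That of EXO, 96.0% as reported, was 90.6% thinned and 90.9% weighted equally, and that of PBS, 96.7% as reported, was 93.5% thinned and 94.1% weighted equally. Without the minimum of 50 UMIs, the genes of the glycolysis list past 2-fold either way in dEXO over PBS numbered 12 in early germ cells (6 with the minimum), 3 in spermatids (0), 13 in Sertoli cells (6), 10 in stromal cells (6), 14 in T or NK cells (2) and 14 in macrophages (2); in late spermatocytes, dEXO over EXO, they numbered 9 (0). The 12 late spermatocytes and 76 spermatids of PBS limit every statement on late germ cells of that group, and class sizes moved with the clustering: dEXO spermatids numbered 355 at the 10% mitochondrial limit and 608 at Leiden resolution 2 (680 as reported), and with each library clustered alone only EXO had late spermatocytes, 153 cells.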

Other observations

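The germ clusters left without a name differed widely in lactate dehydrogenase. Over the 3 libraries together, the 6 unnamed clusters held 1311 cells and had Ldhc at 277 to 9302 CPM. In the cluster the stage markers placed just before late spermatocytes, 172 cells had 2653 CPM of Ldhc, 513 CPM of the testis lactate dehydrogenase gene Ldhal6b, 154 CPM of Pdha2 and 38.6 CPM of Pgk2. Its Pdha2 share of the pair was 95.1%, while its Pgk2 share was 50.6%, so Pdha2 was nearer its late spermatocyte share than Pgk2 was in these cells. This cluster raised 5 Leydig markers, beside 3 of early and 2 of late spermatocytes, and had 37.7 CPM of Pgk1, a gene that Leydig cells carry. The part of Leydig RNA in the Pgk2 share was not tested.

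Slc16a3, the lactate exporter gene, was the list gene at least 2-fold lower in Leydig cells for dEXO over PBS, and it was lowest in dEXO in each Leydig cluster. In cluster c3 it had 10.8 CPM in dEXO, 37.5 in EXO and 50.7 in PBS, and in c5 it had 11.7 CPM in dEXO, 26.1 in EXO and 40.7 in PBS. Slc16a1, the other lactate transporter gene described, had a log2 ratio of 0.40 for dEXO over PBS. With 1 library per group, treatment and library cannot be told apart.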
